A study of Homo sapiens with 41 samples.

Results

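After 1 h in 110 mM NaCl, RNA polymerase II (Pol II) was no longer listed over long stretches of gene bodies that both untreated libraries of T47D cells had covered. These stretches are called lost segments here. They were the bases present in both untreated Pol II lists and in neither list made at 1 h of NaCl, inside the span of a RefSeq protein-coding gene on chromosomes 1 to 22 and X, in unbroken runs of 2 kb or more. There were 10276 lost segments with 49.7 Mb, set against 12527 segments of 2 kb or more that both untreated lists shared. They held 41.8% of all gene-body bases that both untreated lists covered. The members were chosen by the regions listed in all 4 Pol II libraries, so everything said here about Pol II in them is a description without a test.

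T47D is an established cell line from a human breast carcinoma with luminal features. The groups used were 1 h of 110 mM NaCl (2 Pol II, 3 CTCF and 3 RAD21 libraries), 7.5 min (2 CTCF libraries) and 30 min of NaCl (1 CTCF library), 1 h of NaCl followed by 1 h in isotonic medium (1 CTCF and 3 RAD21 libraries), and no stress (2 Pol II, 3 CTCF and 3 RAD21 libraries). The sample labels give 110 mM and the series description 100 mM, and the labels are followed here. All cells, the unstressed ones included, had been kept without steroid hormone and then without serum overnight, so none of these groups shows the line in full medium. Another 6 libraries, all of the second of 2 submission sets, were pre-treated with 500 nM triptolide, which blocks transcription initiation. Each list came from chromatin immunoprecipitation of a single library and holds called regions without read totals. Of the libraries without triptolide, replicates 1 and 2 belong to the first set, and replicate 3 and the single CTCF recovery library to the second. The labels do not say whether replicates were separate cultures, so a p-value measures the spread between libraries only.

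Pol II enters a gene at its promoter, often pauses a short way downstream and then elongates to the gene end, so its occupancy along the body marks genes in transcription. CTCF is an insulator protein that binds a long DNA motif and halts loop extrusion by cohesin, the ring-shaped complex of which RAD21 is a subunit. Many of their sites lie inside genes, where polymerase has to pass them.

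The sequences of 3 promoters that lay wholly inside a lost segment are shown first, because there the loss of Pol II and the fate of CTCF and RAD21 can be read on the same bases. They are RefSeq sequences of build GRCh38.p14 that run from 250 bases before to 50 bases after the gene start. The BCL2L1 window (the gene of the survival factor BCL-XL) is chr20:31722819-31723118 on the minus strand, and its capitals mark a match to the core of the CTCF motif, spelled CCA, 2 free bases, AG, 2 free bases and GGC, searched on both strands. The RBM47 window (an RNA-binding protein) is chr4:40629815-40630114 on the minus strand. The CAPN2 window (the large subunit of a calpain protease) is chr1:223712289-223712588 on the plus strand. In these last windows the capitals mark 41 bases centred on the RAD21 summit of untreated replicate 1.
BCL2L1 promoter: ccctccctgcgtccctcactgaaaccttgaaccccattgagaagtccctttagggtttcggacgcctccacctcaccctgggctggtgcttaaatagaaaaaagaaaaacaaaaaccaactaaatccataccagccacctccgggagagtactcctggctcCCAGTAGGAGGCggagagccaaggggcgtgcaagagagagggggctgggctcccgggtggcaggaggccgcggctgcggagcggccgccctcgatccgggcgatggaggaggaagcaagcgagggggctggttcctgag
RBM47 promoter: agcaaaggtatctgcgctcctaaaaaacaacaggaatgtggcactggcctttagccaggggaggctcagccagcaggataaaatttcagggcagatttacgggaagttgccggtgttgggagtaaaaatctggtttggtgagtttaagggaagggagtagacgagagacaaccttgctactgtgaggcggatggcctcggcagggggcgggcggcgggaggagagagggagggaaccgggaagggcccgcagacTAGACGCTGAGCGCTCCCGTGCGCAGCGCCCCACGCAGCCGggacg
CAPN2 promoter: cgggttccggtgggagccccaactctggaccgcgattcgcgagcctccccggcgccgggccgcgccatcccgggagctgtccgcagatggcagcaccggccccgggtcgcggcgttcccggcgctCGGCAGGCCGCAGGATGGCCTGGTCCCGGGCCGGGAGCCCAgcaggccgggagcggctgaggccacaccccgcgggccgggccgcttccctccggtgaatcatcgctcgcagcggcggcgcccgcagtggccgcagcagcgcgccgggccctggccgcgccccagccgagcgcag

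The BCL2L1 promoter lay in a lost segment of 3.54 kb (chr20:31720424-31723963). Its window held a CTCF summit in 2 of 3 libraries at 1 h and in 3 of 3 untreated libraries, and a RAD21 summit in 1 of 3 at 1 h and in 3 of 3 untreated. The RBM47 promoter lay in a lost segment of 9.34 kb, and its window held a RAD21 summit in 0 of 3 libraries at 1 h and in 3 of 3 untreated, with CTCF in 1 of 3 at 1 h and 2 of 3 untreated. The CAPN2 promoter lay in a lost segment of 4.88 kb, with RAD21 in 0 of 3 libraries at 1 h and 3 of 3 untreated and CTCF in 2 of 3 at 1 h and 3 of 3 untreated. Both proteins were thus listed in fewer libraries at 1 h than without stress in all 3 windows.

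Such promoters were few. Of 22131 promoter windows of protein-coding genes, 621 lay wholly inside a lost segment. The motif letters were found in 1.77% of these 621 windows and in 2.52% of all windows. A CTCF summit of all 3 untreated libraries fell in 26 of the 621, and BCL2L1 was the 1 window among these 26 with the motif letters. A RAD21 summit of all 3 untreated libraries fell in 16 of the 621, and in 6 of these 16 (37.5%) no 1 h library had one. Over all windows the share was nearly the same, 193 of 521 (37.0%). The RBM47 and CAPN2 windows are 2 of these 6, shown because they lay in long segments and had CTCF as well, so their contrast between RAD21 and CTCF was fixed by the choice. Of the other 4, LARP1 and MACIR had CTCF in 0 libraries at 1 h (0 and 1 untreated), and VPS37D and HECTD2 had it in 3 at 1 h and 3 untreated.

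Most lost segments were a few kilobases long and a small number were very long. The median was 3507.5 bp, with quartiles of 2568 and 5460 bp, and the longest measured 86.2 kb. Segments of 10 kb or more numbered 653 up to 20 kb and 126 beyond it, and these 126 held 6.91% of the lost bases. At the length threshold, 1020 segments measured 2000 to under 2200 bp and 1230 further pieces of 1800 to under 2000 bp fell just outside. Counted at any length, the lost bases came to 73.5 Mb, or 61.8% of the shared untreated gene-body bases, while 13.6 Mb (11.4%) were covered in all 4 lists. A 1 h region bordered 3322 lost segments on both sides and 3693 on one side, and 3261 had an edge set on neither side by a 1 h region. Long stretches were thus often cut into several segments by 1 h regions.

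The 1 h Pol II lists held 107396 and 216968 regions over 212.3 and 261.7 Mb, against 105302 and 88046 regions over 291.9 and 257.2 Mb in the untreated lists. Of the listed bases, 55.1 and 50.9% lay in protein-coding genes at 1 h, against 72.1 and 71.3% without stress. The second 1 h list thus covered as much of the genome as an untreated list, with less of it in genes. The mirror of the rule, bases in both 1 h lists and neither untreated list, gave 2075 segments with 9.56 Mb. Segments of 2 kb or more in all 4 lists, called kept segments here, numbered 1638 with 8.79 Mb. The untreated regions behind the segments were weak: their median deposited fold enrichment, which is the authors', was 1.45 and 1.67 in the 2 untreated lists at lost segments and 1.56 and 1.85 at kept segments.

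Checked against its markers, the material had the untreated Pol II profile of a luminal breast line in part. Shared untreated Pol II was present in 10 of 13 luminal markers, with ERBB2, KRT18 and SPDEF without any, and in 2 of 6 haematopoietic and 2 of 6 neuronal and muscle markers. Occupancy over chromatin from many cells cannot tell fewer cells with polymerase on a gene from less polymerase per cell.

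Lost segments were spread over 4586 genes, which is 63.6% of the 7207 genes with a shared untreated segment of 2 kb or more and 23% of all 19970 protein-coding genes. A kept segment was found in 1170 genes, and 337 genes had both kinds. Of the genes with a lost segment, 2427 had 1, 1640 had 2 to 4 and 519 had 5 or more. The potassium channel gene KCNMA1 had the most, 33. In 1224 genes, at least 80% of the shared untreated bases lay in lost segments. The 100 genes with the most lost bases held 19.8% of the total. Of the segments, 9551 lay in exactly 1 gene each and 725 overlapped 2 or more genes, so neighbouring or nested genes can share a segment.

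The most lost bases were found in very long genes. NCAM2, which encodes a neural cell adhesion molecule, lost 384 kb in 15 segments (chromosome 21, 20998409 to 21543329). Pol II covered 55.2 and 95.6 kb of NCAM2 in the 1 h lists and 499.6 and 515.3 kb in the untreated lists. TENM3, a teneurin of the cell surface, lost 268 kb, with 32.4 and 109.6 kb covered at 1 h and 429.0 and 395.8 kb without stress. In KCNMA1, 48.0 and 57.0 kb were covered at 1 h and 421.6 and 529.8 kb without stress. In all 3 genes both 1 h lists lay well below both untreated lists.

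SHANK2, a scaffold protein gene known from synapses, showed how the 1 h lists can differ. Pol II covered 1.75 and 289.9 kb of SHANK2 at 1 h and 529.7 and 662.0 kb without stress, so that the second 1 h list retained far more than the first. APP, the amyloid precursor gene, lost 194 kb, with 58.1 and 24.6 kb covered at 1 h and 285.7 and 284.9 kb without stress. APBB2, whose product binds the amyloid precursor, lost 218 kb, with 33.2 and 43.8 kb covered at 1 h and 323.0 and 326.4 kb without stress. ANKRD11, a chromatin regulator gene, lost 182 kb, or 82.4% of its shared untreated bases. KDM6A, a histone H3K27 demethylase gene on the X chromosome, lost 175 kb (82.0%).

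ESR1, the oestrogen receptor gene that defines luminal lines, lost 136 kb in 20 segments. Pol II covered 147.0 and 147.7 kb of ESR1 at 1 h and 334.6 and 323.8 kb without stress, and 70.2 kb were covered in all 4 lists. Other luminal genes lost large stretches too. GRHL2, an epithelial transcription factor gene, had 11.9 and 37.6 kb covered at 1 h and 185.9 and 186.4 kb without stress. TRPS1, a GATA-type repressor gene, kept 126 kb and lost 113 kb of a gene that both untreated lists covered from end to end.

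Some shorter genes lost Pol II over their whole length. PKM, the pyruvate kinase gene, was covered over all of its 32.6 kb in both untreated lists and over 0 kb in both 1 h lists, as a single lost segment at chr15:72199029-72231591. The same held for KRT7 (22.6 kb, a keratin gene), THBS1 (18.4 kb, thrombospondin 1), DUSP4 (17.6 kb, a MAP kinase phosphatase), HNRNPH3 (11.5 kb, an RNA-binding protein) and RPS14 (7.11 kb, a ribosomal protein), each covered end to end in both untreated lists and listed at 0 kb in both 1 h lists. PLEC, a cytoskeletal linker gene, had 0 kb at 1 h in both lists and 55.9 and 58.6 kb without stress.

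Within long genes the loss was uneven from start to end. Position was read in the 12019 genes that overlap no other gene and have a strand in the promoter table. In the 2112 of these of 100 kb or longer, each gene was cut into 10 equal parts, numbered from its start. Lost segments held 37.0% of the shared untreated bases in part 1, 52.0, 51.4, 52.3 and 49.4% in parts 2 to 5, 44.2, 40.4, 41.5 and 38.6% in parts 6 to 9, and 38.7% in part 10. Bases kept in both 1 h lists ran the other way, at 2.94% in part 2 and 15.3% in part 10. The loss was thus densest in the first part of the gene body after the start region.

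**Figure D1:**
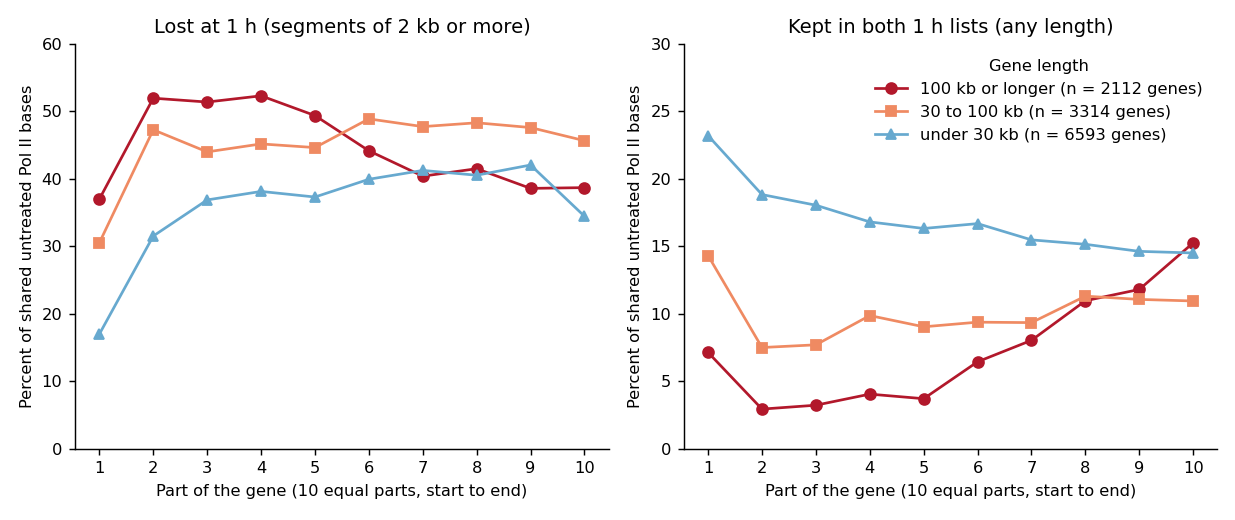
Share of the bases with Pol II in both untreated lists that lay in lost segments (left) or in both 1 h lists (right), in percent, by part of the gene (10 equal parts from the start), in 3 classes of gene length. In genes of 100 kb or longer the lost share is highest in parts 2 to 4, at 51.4 to 52.3%, and the kept share reaches 15.3% in part 10, while genes under 30 kb have their lowest lost share (17.0%) and highest kept share (23.2%) in part 1.

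The slope was seen in each pair of lists on its own. With the replicate 1 lists alone the lost share in these long genes was 61.3% in part 2 and 53.6% in part 9, and with the replicate 2 lists alone it was 59.1 and 50.9%. Taken over parts 2 to 5, the lost share was 51.3% and the kept share 3.49%, and over parts 6 to 9 they were 41.1 and 9.45%. Among the 255 genes with at least 5 kb of shared bases in both stretches, more was lost in parts 2 to 5 in 138, more in parts 6 to 9 in 98, and equal shares in 19. The mean difference per gene was 4.23 percentage points, so single genes varied widely around it.

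In genes of 30 to 100 kb the lost share did not decline along the body. It was 30.5% in part 1 and 44.0 to 48.9% in every later part. Counted at any length, their lost bases went the way of the long genes by a small amount, at 68.2% of the shared bases in part 2 and 64.3% in part 10, and their kept share was 7.51% in part 2 and 11.3% in part 8. In genes under 30 kb it was 17.0% in part 1 and 31.5 to 42.1% in the others. Part 1 had the lowest share in lost segments in all 3 length classes. In genes of 100 kb or longer this depended on the 2 kb minimum: with lost bases of any length, part 1 had 66.6%, part 2 77.6% and parts 7 to 10 had 64.8, 62.0, 58.6 and 55.5%. With the replicate 1 lists alone, part 1 (53.9%) likewise lay above parts 9 and 10 (53.6 and 52.9%).

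Distance from the start gave a similar picture in kilobases up to 300 kb. These bins take all 12019 genes, and those past 100 kb hold only genes of 100 kb or longer. The lost share was 13.3% in the first kilobase, 26.6% in the second, 39.2% at 2 to 5 kb and 49.7% at 50 to 100 kb. Counted at any length, lost bases made up 39.9% of the first kilobase, 51.0% of the second, 56.6% at 2 to 5 kb and 70.8% at 50 to 100 kb. Without the 2 kb minimum the share was thus higher in each of these bins, and still lowest in the first kilobase. Farther in, the share in lost segments was 47.1% at 100 to 150 kb, 37.2% at 150 to 200 kb, 31.5% at 200 to 300 kb and 40.2% beyond 300 kb. The kept share was 22.7% in the first kilobase, 6.49% at 100 to 150 kb, 21.1% at 200 to 300 kb and 12.3% beyond 300 kb. In genes of 100 kb or longer alone it was 13.4% in the first kilobase. The distant bins rest on few genes: 339 had shared untreated bases at 200 to 300 kb, where NFIA alone held 13.8% of the kept bases. Beyond 300 kb PATJ held 27.5% of the kept bases and TENM3 19.7% of the lost bases.

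**Figure D2:**
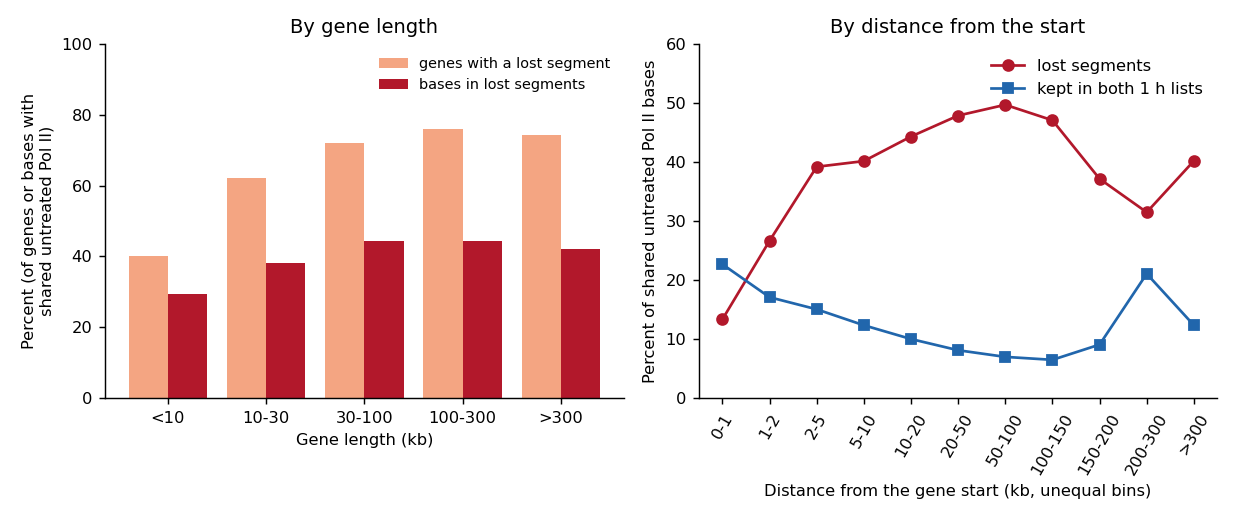
Left, percent of the genes with a shared untreated segment of 2 kb or more that had a lost segment, and percent of shared untreated gene-body bases in lost segments, by gene length in kb. Right, percent of shared untreated bases in lost segments and in both 1 h lists by distance from the gene start in kb; the share in lost segments, which counts runs of 2 kb or more, is 13.3% in the first kilobase and 49.7% at 50 to 100 kb (39.9 and 70.8% with lost bases of any length), and the kept share is 21.1% at 200 to 300 kb.

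Single long genes showed the change of state along the body directly. In PATJ, a scaffold of the cell polarity machinery that both untreated lists covered from end to end over 421 kb, lost segments made up 91.1% of the first 50 kb, 98.9% of the next 50 kb and 81.4% of 100 to 150 kb. Between 150 and 200 kb 15.9% was lost, and beyond 200 kb nothing was. There, 80.6% of 200 to 300 kb and 93.5% of the rest of PATJ was covered in both 1 h lists. NFIA, a transcription factor gene, was alike: lost segments held 86.2, 91.3 and 92.4% of the shared bases in its first 3 stretches of 50 kb, 58.7% at 150 to 200 kb and 0% beyond 200 kb, where 86.0% of 200 to 300 kb was kept. In both genes the listed polymerase at 1 h lay almost wholly in the downstream part.

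THSD4, which encodes a secreted protein, had 55.1 to 84.5% lost in its first 4 stretches of 50 kb and 0% lost at 200 to 300 kb, where 44.8% was kept. Beyond 300 kb THSD4 again had more lost (35.5%) than kept (9.77%). ESR1 was scarcely covered over the first 150 kb of its annotated span even without stress, had 83.4% lost at 150 to 200 kb and 67.8% at 200 to 300 kb, and 18.4% lost with 43.8% kept beyond 300 kb. LDLRAD4, a regulator of TGF-beta signalling, had 76.0 to 86.6% lost in each 50 kb stretch up to 200 kb and 30.1% lost beyond 300 kb. NCAM2 differed in extent: 96.6 to 99.6% of its shared bases were lost in every stretch up to 300 kb, and 52.7% beyond, with 28.6 kb kept there. ANKRD11 was the opposite case, with 88.3% lost in its first 50 kb and 100% beyond 150 kb.

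Of the 15 genes with the most lost bases, 14 had a strand, and 12 of these had at least 20 kb of shared untreated bases both within 150 kb of the start and beyond 200 kb. The lost share was higher in the first 150 kb than beyond 200 kb in 10 of the 12, the exceptions being ANKRD11 and STARD13. The kept share was higher beyond 200 kb in 10 of the 12. These distances were chosen after the values were seen, and the genes were chosen for their lost bases, so the counts describe these genes only.

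**Figure D3:**
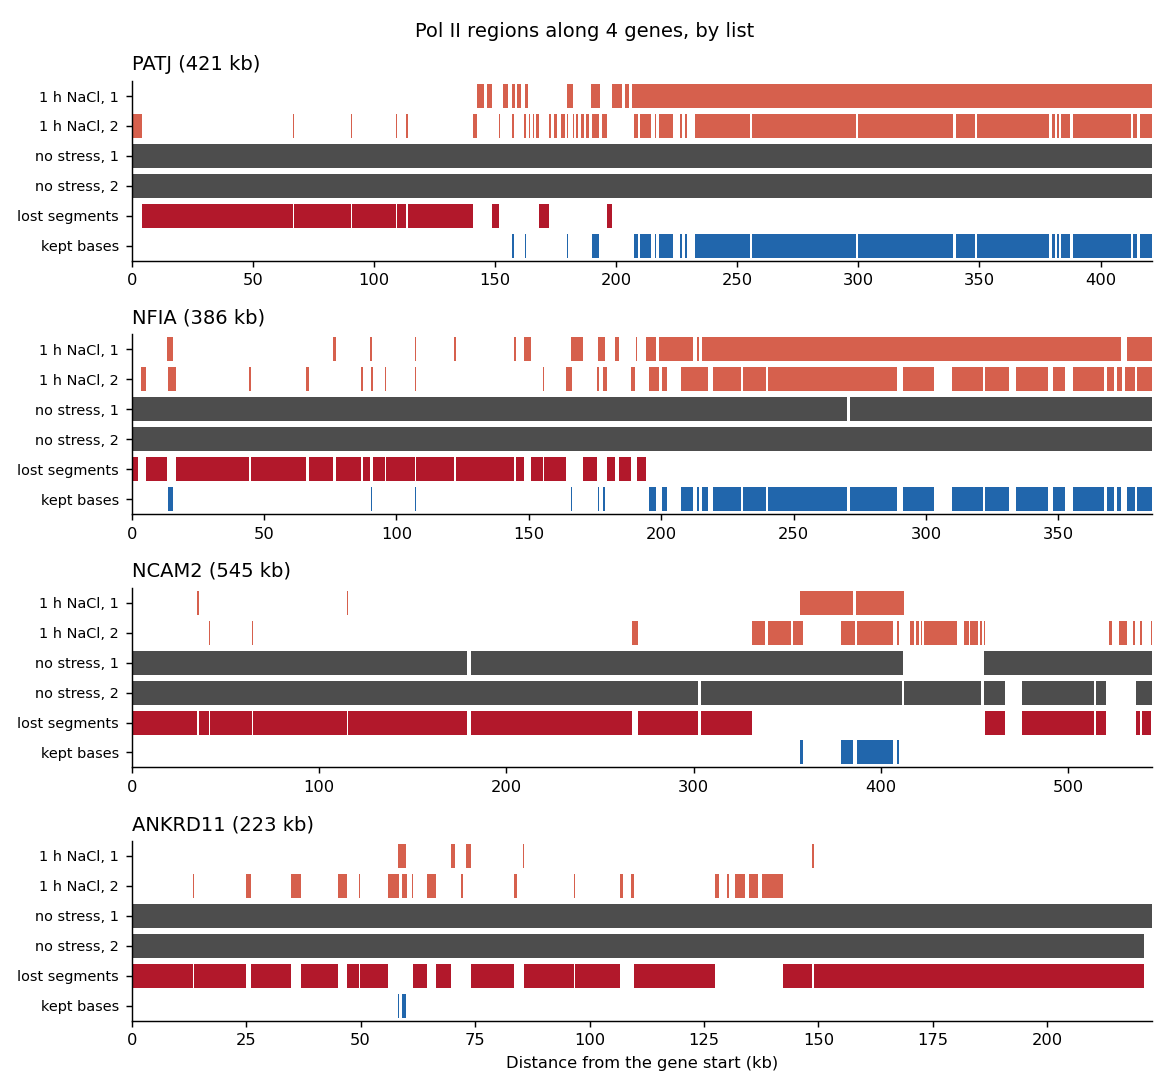
Pol II regions in the 2 lists at 1 h of NaCl and the 2 untreated lists, with the lost segments and the bases kept in all 4 lists, along PATJ, NFIA, NCAM2 and ANKRD11 by distance from the gene start in kb. In PATJ and NFIA the lost segments end before 200 kb and the kept bases fill most of what follows, in NCAM2 kept bases appear only beyond 300 kb, and ANKRD11 is lost up to its end.

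Gene starts were also compared between genes with and without a lost segment. Among genes with a lost segment, 1913 of 2520 had shared untreated Pol II within 1 kb of the start, and 415 of these (21.7%) had it there in both 1 h lists. At 1225 starts (64.0%) at least 1 of the 2 lists had it. Among genes with shared untreated Pol II of 2 kb or more and no lost segment, 555 of 1117 starts (49.7%) were covered in both 1 h lists. Gene ends of genes with a lost segment had Pol II in both 1 h lists at 183 of 1814 (10.1%), against 438 of 943 (46.4%) in genes without one. All of these values come from the lists that chose the genes. A lost segment itself reached within 1 kb of the start in 721 of the 2520 genes, and in 12 of the genes without one of their own, so the lower share at starts is in part set by the choice of genes.

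Longer genes had a lost segment more often. Of genes with shared untreated Pol II, 40.1% of those under 10 kb had a lost segment, 62.2% at 10 to 30 kb, 72.0% at 30 to 100 kb, 76.1% at 100 to 300 kb and 74.3% beyond 300 kb. The share of bases in lost segments was flatter, at 29.5, 38.1, 44.3, 44.5 and 42.2% in the same order. The median length was 41.3 kb for genes with a lost segment, 23.5 kb for genes with a kept segment, 32.0 kb for all genes with shared untreated Pol II and 24.2 kb for all genes. Genes with a lost segment were thus longer at the median than those with shared untreated Pol II in general.

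Chromosomes differed as well. On chromosome 21, the genes NCAM2 (384 kb) and APP (194 kb) alone made up a large part of the 1.36 Mb lost, out of 2.50 Mb shared. Lost segments held 61.3% of the shared untreated gene-body bases on chromosome 18 and 54.4% on chromosome 21, against 29.0% on chromosome 17, 29.2% on chromosome 16 and 33.2% on chromosome 19. The last 3 had the highest kept shares, 23.86, 24.28 and 21.98%, whereas chromosome 18 kept 2.68%.

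Most gene groups had members with a lost segment, in numbers that went partly with gene length. Differences between groups were not tested. The counts below are of members with a lost segment among members with shared untreated Pol II of 2 kb or more, to be read beside the 63.6% of all such genes, and shares of bases are to be read beside the 41.8% of all shared untreated bases. Chromatin and histone modifiers, whose median length was 152 kb, had 22 of 24, but 39.6% of their shared bases lay in lost segments. KDM6A is described above. ASH1L, a histone methyltransferase gene, lost 85.2 kb.

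Ubiquitin ligases and deubiquitinases had 19 of 24 (47.2% of bases). The ligase gene HUWE1 had 23.6 and 4.75 kb covered at 1 h and 128.2 and 147.6 kb without stress. Genes of the actin cytoskeleton and adhesion had 18 of 23 (37.4% of bases), among them MYH9, the non-muscle myosin heavy chain gene, with 30.4 and 21.2 kb at 1 h and 106.7 and 106.7 kb without stress. Receptor tyrosine kinase and PI3K genes had 13 of 19 (45.0% of bases), among them the Ras regulator NF1. Pol II pausing, elongation and termination factors had 12 of 19, with the highest share of bases of all 17 lists (61.2%). AFF4, the scaffold of the super elongation complex, had 4.44 and 8.75 kb at 1 h and 88.2 and 88.2 kb without stress, and the termination factor gene SCAF8 lost 60.9 kb.

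Osmolyte, NFAT5 and cell volume genes had 8 of 9 and 35.2% of their bases in lost segments. NFAT5, the transcription factor of the osmotic stress response, lost 39.7 kb, or 39.6% of its shared untreated bases, with 41.5 and 26.5 kb covered at 1 h and 120.9 and 106.9 kb without stress. WNK1, a kinase of volume control, had 6.04 and 8.25 kb at 1 h and 91.90 and 80.04 kb without stress. Cohesin, CTCF and loop factors had 9 of 13 (43.0% of bases), with PDS5B (53.9 kb lost), the loader gene NIPBL (23.9 kb) and the release factor gene WAPL (13.2 kb). Glycolysis enzymes had 10 of 13 (47.7% of bases), among them PGK1 with 0 and 0.562 kb at 1 h and 25.05 and 21.40 kb without stress.

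Luminal identity genes had 14 of 22 (49.0% of bases) and oestrogen and progesterone targets 8 of 15 (35.1%). The progesterone receptor gene PGR was covered over 15.1 and 18.0 kb at 1 h and over all of its 100.2 kb in both untreated lists. The integrated stress response list had 8 of 16, below the share of all genes, yet 51.4% of its bases lay in lost segments, and its serine synthesis genes PSAT1 and PHGDH lost 19.4 and 19.2 kb. Heat shock chaperones had 6 of 15 (24.4% of bases) and cytosolic ribosomal protein genes 11 of 28 (33.1%). Immediate early and MAP kinase genes had 2 of 13 (37.7% of bases), DUSP4 and MAPK14, while 7 had a kept segment. The order of the groups by members and by bases was thus not the same. The median length with shared Pol II was 6.94 kb for the immediate early and MAP kinase genes and 4.61 kb for the ribosomal protein genes. Genes under 10 kb were also the length class with the lowest share of genes with a lost segment. Common fragile site genes had 6 of 8 (38.1% of bases), with RAD51B (71.0 kb lost) first.

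Markers of other tissues gave 5 of 5 neuronal and muscle genes (22.1% of bases, the lowest share of all 17 lists) and 1 of 2 haematopoietic genes (56.4%) with shared Pol II. In the neuronal gene RBFOX3 a single 2.31 kb segment was lost, while Pol II covered 67.4 and 92.9 kb at 1 h and 34.4 and 19.0 kb without stress. A lost segment can thus sit in a gene whose total coverage was higher at 1 h.

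CTCF peaks inside lost segments were fewer at 1 h than without stress. The 3 libraries at 1 h had 1045, 869 and 676 peaks with a summit in lost segments, against 1894, 1208 and 1413 in the untreated libraries, and the groups did not overlap. As a density this was 17.4 ± 3.71 peaks per Mb at 1 h and 30.3 ± 7.09 per Mb without stress (SD, n = 3 each). The ratio was 0.575, a log2 difference of -0.80 on the scale log2(peaks + 1), with an exact 2-sided permutation p of 0.1 (0.3 after Benjamini-Hochberg adjustment over 6 tests), the smallest value that 3 libraries against 3 allow, so the difference could not pass 0.05. The whole lists shrank too, to 22018 to 35374 peaks at 1 h, against 38571 to 59843 without stress. When all 6 lists were cut to the same number of strongest peaks, the log2 difference was -0.09 (exact permutation p = 0.6).

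Set against the kept segments, a further difference in CTCF in lost segments was small and not detectable with 3 libraries a group. The ratio of peaks in lost to peaks in kept segments changed by -0.14 on the log2 scale at 1 h relative to no stress (exact permutation p = 0.7, 0.8 adjusted). The CTCF libraries deviated together by number, though not clearly in pair 1. There r was 0.13, against 0.14 between replicate 1 at 1 h and untreated replicate 2. Within the numbered pairs the change in the ratio was -0.12, -0.27 and -0.04. With the replicate block the exact permutation p was 0.25, the smallest that 3 pairs allow. The direction was thus the same in all 3 pairs, in a design that cannot pass 0.05. Without replicate 3 at 1 h or untreated replicate 2, which breaks a pair, the sign was the other way, at 0.08 and 0.09. In density, lost segments lay below kept segments and above the rest of the gene spans (all bases of gene spans outside lost segments) in every library. At 1 h they had 21.0, 17.5 and 13.6 CTCF peaks per Mb, kept segments 42.5, 29.7 and 39.8 and the rest of the gene spans 12.6, 11.1 and 7.95. Without stress they had 38.1, 24.3 and 28.4, kept segments 71.0, 34.2 and 80.9 and the rest 22.4, 15.4 and 15.2. Lost segments were denser in CTCF than the rest of the gene spans by a factor of 1.67, 1.57 and 1.71 at 1 h and 1.71, 1.58 and 1.87 without stress, lower at 1 h in each of the 3 numbered pairs.

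Fewer CTCF peaks were also listed at the earliest time. Over time, lost segments held 1894, 1208 and 1413 CTCF peaks without stress, 928 and 794 at 7.5 min, 664 at 30 min and 1045, 869 and 676 at 1 h. After recovery the single library, of the second set, had 1702. The whole CTCF lists held 59843, 43835 and 38571 peaks without stress and 36962 and 31074 at 7.5 min. They held 26737 peaks at 30 min and 46377 after recovery, so the lists as a whole were also shorter at 7.5 and 30 min. Relative to kept segments, 7.5 min differed from no stress by -0.02 on the log2 scale (exact permutation p = 0.67, where 2 libraries against 2 cannot go below 0.33). The 30 min and recovery values are single libraries.

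**Figure D4:**
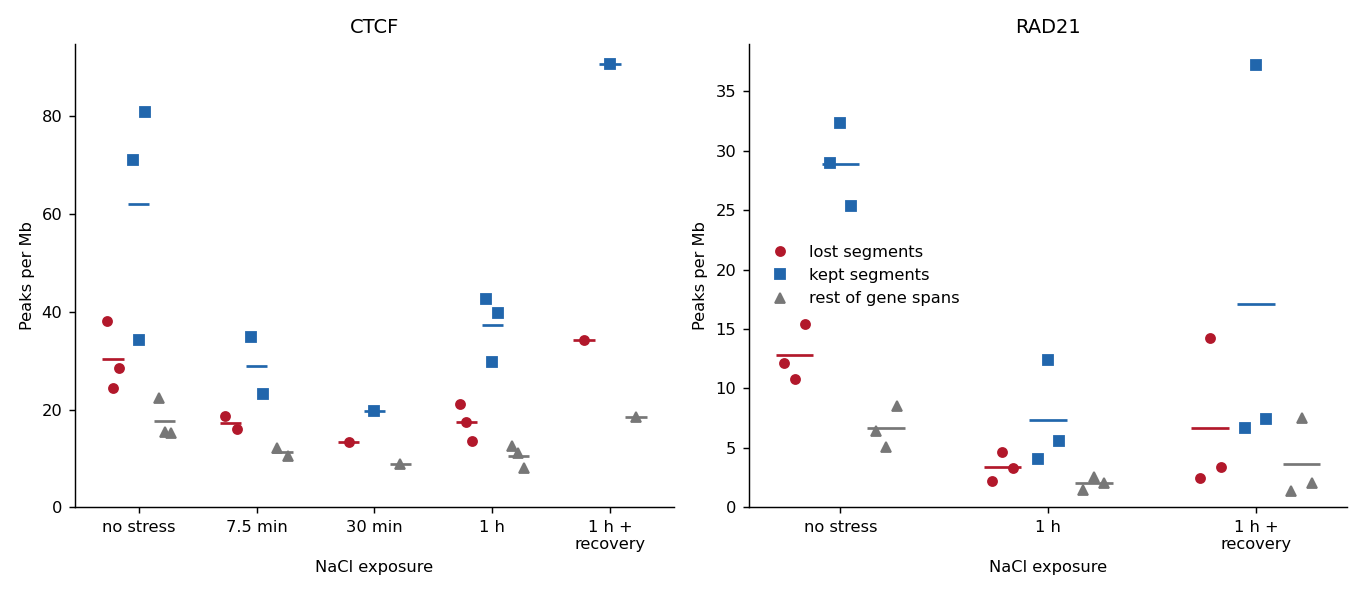
CTCF (left) and RAD21 (right) peaks per Mb in lost segments, kept segments and the rest of the gene spans, for each library without stress, during NaCl and after recovery; points are libraries and short lines are means. In every library the lost segments lie between the kept segments and the rest of the gene spans, and the densities in lost segments at 1 h of NaCl do not overlap those without stress, for CTCF (17.4 against 30.3 per Mb on average) or RAD21 (3.39 against 12.8). The same holds in the rest of the gene spans, for CTCF (10.6 against 17.7) and RAD21 (2.01 against 6.70). In kept segments the groups overlap for CTCF and not for RAD21.

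At the level of sites, the shares for CTCF in lost segments lay close to those in gene spans as a whole. A site is a merged group of overlapping peaks, and 799 sites present in all 3 untreated libraries had their midpoint in a lost segment. Of these, 442 (55.3%) were present in all 3 libraries at 1 h, against 55.6% of the 12013 such sites in gene spans, and 63 (7.88%) were in none, against 6.36%. In kept segments 177 of 258 sites (68.6%) were in all 3 libraries at 1 h and 19 (7.36%) in none. A single site in lost segments was present in all 3 libraries at 1 h and in no untreated library. Most lost segments held none of these CTCF sites: 9520 of 10276 (92.6%) had 0, 718 had 1, 34 had 2 and 4 had 3 or more.

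RAD21 peaks inside lost segments were also fewer at 1 h. The 1 h libraries had 110, 231 and 164 peaks in lost segments, against 605, 536 and 768 in the untreated libraries, again without overlap. The densities were 3.39 ± 1.22 peaks per Mb at 1 h and 12.81 ± 2.398 per Mb without stress (SD, n = 3 each). The ratio was 0.257, a log2 difference of -1.96 with an exact 2-sided permutation p of 0.1 (0.3 adjusted over 6 tests), the smallest possible. The RAD21 lists as a whole held 4761 to 7843 peaks at 1 h, against 13762 to 24931 without stress. With equal numbers of strongest peaks the log2 difference was -0.29 (exact permutation p = 0.1).

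The change relative to kept segments was 0.15 on the log2 scale (exact permutation p = 0.8, 0.8 adjusted), and its sign depended on the setting. It was -0.28 with segments of 5 kb or more, -0.03 without the first and last kilobase of each gene and -0.05 without untreated replicate 2. Against the rest of the gene spans, a comparison added after the data were seen, it was -0.22 (exact permutation p = 0.2). Lost segments were denser in RAD21 than the rest of the gene spans by a factor of 1.53, 1.83 and 1.61 at 1 h and of 1.89, 2.12 and 1.81 without stress. The factor was lower at 1 h in each of the 3 numbered pairs, whereas the factor over the 2 kb flanks of the segments, given last, was higher at 1 h in each, so the direction depended on what the segments were set against. The RAD21 libraries did not deviate together by number in every pair, and without the pairing the 2 groups overlapped in both factors.

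Of 315 RAD21 sites of all 3 untreated libraries in lost segments, 135 (42.9%) were in no library at 1 h, against 36.4% of the 4438 such sites in gene spans, and 89 (28.3%) were in all 3, against 30.6%. In kept segments 65 of 138 (47.1%) were in none and 30 (21.7%) in all 3. Both classes of Pol II segment thus had a higher share of RAD21 sites absent at 1 h than gene spans as a whole, by counts that were not tested. By the authors' deposited fold enrichment, 39.8, 34.3 and 38.5% of the untreated RAD21 peaks in lost segments lay above their library's median, against 28.6, 24.3 and 25.6% in kept segments and 45.1, 43.4 and 46.8% in the rest of the gene spans. Peak strength in lost segments thus lay between the other classes. The part of peak strength in the site counts was not tested.

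**Figure D5:**
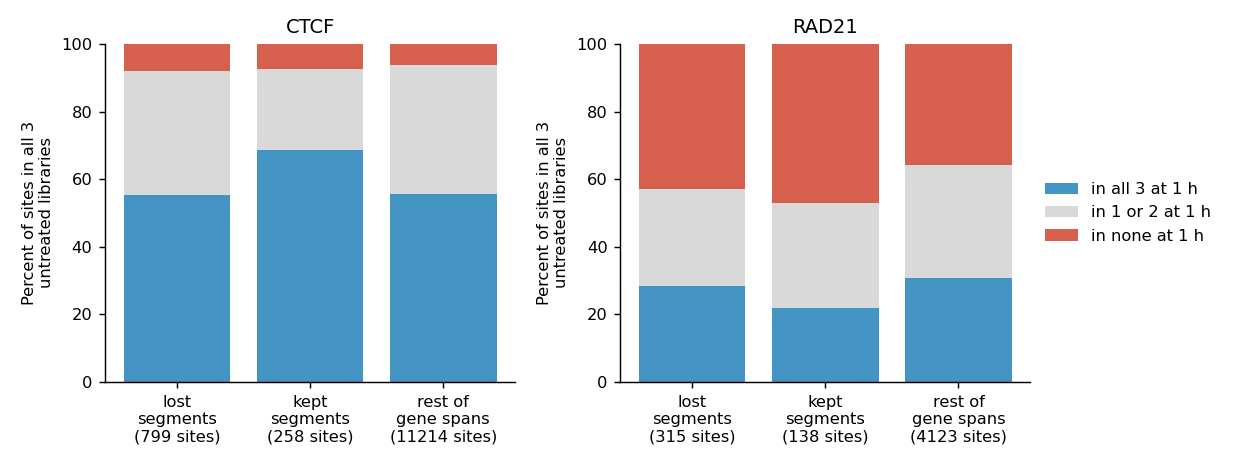
Sites present in all 3 untreated libraries, split by how many of the 3 libraries at 1 h of NaCl had them, in percent, for lost segments, kept segments and the rest of the gene spans. CTCF sites in lost segments were in all 3 libraries at 1 h in 55.3% and in none in 7.88%, and RAD21 sites in 28.3 and 42.9%.

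RAD21 that remained lay mostly at CTCF. In lost segments, 99.1, 83.1 and 93.9% of the RAD21 peaks at 1 h also lay on a CTCF peak called in that condition within the matching submission set, against 84.8, 76.3 and 74.5% without stress. The share was higher at 1 h in each of the 3 numbered pairs, though the groups overlapped without the pairing. In the rest of the gene spans it was 98.7, 87.9 and 91.3% at 1 h and 92.9, 84.0 and 77.8% without stress, so the same direction was present there.

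Recovery differed between libraries. RAD21 peaks in lost segments numbered 605, 536 and 768 without stress, 110, 231 and 164 at 1 h and 121, 708 and 170 after 1 h in isotonic medium, so replicate 2 returned above its unstressed number and the others did not. The whole recovery lists differed alike, with 4397, 20400 and 6492 peaks. Relative to kept segments the change during recovery was -0.29 on the log2 scale (exact permutation p = 0.3, 0.6 adjusted), and against the rest of the gene spans it was 0.10 (exact permutation p = 0.3). In the numbered pairs the change relative to kept segments was -0.56, 0.04 and -0.35.

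With triptolide, each condition has 1 library and no test. CTCF peaks in lost segments numbered 1573 without stress, 641 at 1 h and 1209 after recovery in triptolide, beside 1413, 676 and 1702 in the libraries of the same set without the drug. RAD21 peaks numbered 1727, 89 and 774 in triptolide, beside 768, 164 and 170 without it. In the same order, the whole CTCF lists held 41718, 20678 and 34517 peaks in triptolide, beside 38571, 22018 and 46377 without it. The whole RAD21 lists held 40969, 3344 and 22967 peaks in triptolide, beside 24931, 6630 and 6492 without it. The unstressed triptolide library had the highest RAD21 density in lost segments relative to the rest of the gene spans of all RAD21 libraries, a factor of 2.24. Its whole list was also the longest, with 40969 peaks.

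The segments with the most CTCF sites differed in outcome. The BCL6 segment, at the start of this transcriptional repressor gene (chr3:187730545-187745468), held 4 shared CTCF sites, the most of any segment. BCL6 had 4, 4 and 3 CTCF peaks there at 1 h and 4, 4 and 4 without stress, and 3, 3 and 3 RAD21 peaks at 1 h against 4, 4 and 4 without stress. Pol II was listed over 0 kb of BCL6 at 1 h in both lists and over 24.1 and 21.0 kb without stress. The 23.9 kb segment over RHOF and SETD1B, a small GTPase gene and a histone methyltransferase gene, held 3, 3 and 3 RAD21 peaks at 1 h and 3, 3 and 3 without stress. Its CTCF peaks numbered 3, 3 and 3 at 1 h and 3, 3 and 5 without stress. In these segments polymerase was lost while most CTCF and RAD21 peaks stayed listed.

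Other segments were chosen for RAD21 sites present in all 3 untreated libraries and in no 1 h library, so their RAD21 loss was fixed by the choice. Over all sites of the 3 untreated libraries, the share in no 1 h library was 42.9% in lost and 47.1% in kept segments. The segment over PLCD3 and ACBD4, a phospholipase C gene and an acyl-CoA-binding protein gene (chr17:45130923-45142059), held 3 shared RAD21 sites, of which 2 were in no 1 h library. It had 1, 1 and 1 RAD21 peaks at 1 h against 3, 3 and 3 without stress, while CTCF had 3, 3 and 3 at 1 h against 3, 3 and 2. In PKM, RAD21 had 0, 0 and 0 peaks at 1 h and 1, 1 and 1 without stress, beside 2, 2 and 1 CTCF peaks at 1 h and 2, 2 and 2 without. The segment at one end of CDH1, the E-cadherin gene, had 0, 0 and 0 RAD21 peaks at 1 h and 2, 2 and 2 without stress. KRT7 had 0, 0 and 0 RAD21 peaks at 1 h and 2, 1 and 3 without stress, and its CTCF peaks numbered 1, 0 and 0 at 1 h and 2, 1 and 3 without stress.

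The longest segments varied. The 86.2 kb segment of NCAM2 held 1, 1 and 0 CTCF peaks at 1 h and 2, 1 and 1 without stress, and the 62.2 kb segment of PATJ held 0 in all 6 libraries. The 72.1 kb segment of ANKRD11 held 3 shared CTCF sites, with 3, 2 and 1 CTCF peaks at 1 h and 4, 3 and 6 without stress, and the segment of APP, of 38.5 kb, had 2, 2 and 1 at 1 h and 3, 3 and 1 without stress. In PLEC the untreated libraries disagreed, with 0, 0 and 2 CTCF peaks at 1 h and 1, 0 and 12 without stress. None of the 10 longest segments held a RAD21 site of all 3 untreated libraries. Across lengths, the mean untreated CTCF density was 46.2 peaks per Mb in segments of 2000 to under 2200 bp and 19.9 per Mb in those of 20 kb or more, and the RAD21 density was 18.6 and 7.77 per Mb. Around the segments, CTCF peaks were denser inside than in the 2 kb on either side by a factor of 1.11 to 1.34 at 1 h and 1.18 to 1.35 without stress. For RAD21 the factor was 1.56, 1.26 and 1.55 at 1 h and 1.14, 1.16 and 1.33 without stress. It was higher at 1 h in each numbered pair, though the groups overlapped without the pairing.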

How the data were processed

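The deposited files are 29 peak lists, each from a single library, of 41 samples; the other 12 are inputs without one. Per the submitters' processing notes, the tools were cutadapt, Bowtie2 2.2.6 and MACS2, on the build hg38. Which threshold and control the calling used is not given in the sources used here. Each list gives the authors' fold enrichment (a ratio), −log10 p and −log10 q, and a deposited integer score, all values of the peak itself, used only to describe, rank or filter peaks within a list. Read depth is unknown. The members and gene lists were chosen with earlier results of these data known.

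Samples were grouped by title, and titles and tags disagree on triptolide and replicate numbers in places. Intervals were intersected and subtracted with Python 3.11.15, numpy 2.4.6 and pandas 2.3.3. Gene spans are those of 19970 RefSeq protein-coding genes (GRCh38.p14), in which exons and introns were not told apart, and the strand came from the promoter table (15811 genes). Positions are 1-based. A CTCF or RAD21 peak was counted where its summit lay. Peak numbers were compared as log2(peaks + 1) by exact 2-sided permutation tests over libraries, checked on simulated data. Named genes are the 15 with the most lost bases, those of the 10 longest segments, up to 3 per gene list, and those of the 10 segments with the most shared CTCF sites or lost RAD21 sites; a few of these genes are not reported here. For CTCF, deviations from the group means correlated between libraries of the same number (from titles, or the shared second set), at r = 0.13, 0.38 and 0.34. Replicate 1 at 1 h correlated about as much with untreated replicate 2 (r = 0.14). Alternatives were other segment lengths, joined regions, trimmed genes, peak filters, equal list lengths, a replicate block and leaving out each library.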

Additional observations from a re-analysis of the deposited data

How the results depend on the processing

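The number of lost segments depended on the lists and thresholds. It was 19921 at a minimum of 1 kb and 3005 at 5 kb, 4438 with untreated regions of −log10 q of at least 1.3, 21329 and 19783 from the replicate 1 and replicate 2 lists alone, and 11151 to 20052 without any 1 Pol II library, against 10276 as reported. In genes of 100 kb or longer, the lost share in parts 2 to 5 (of 10 equal parts from the start) exceeded that in parts 6 to 9 under all settings run, by 10.2 percentage points as reported, 11.4 at 1 kb, 6.83 at 5 kb, 15.4 with the −log10 q filter, 5.44 and 6.59 in the replicate 1 and 2 lists alone, and 7.40 to 8.68 without any 1 library. The median length of genes with a lost segment, 41.3 kb, was 44.7 kb at 5 kb, 44.3 kb with trimmed genes, 45.2 kb with the −log10 q filter, and 37.7 to 45.8 kb without any 1 library. The share of genes with a lost segment, 63.6%, was 72.7% at 1 kb, 45.8% at 5 kb, 67.2% with trimmed genes, 68.4 to 77.1% without any 1 library, 82.9 and 80.3% in the replicate 1 and 2 lists alone, and 58.5% with each segment given to the gene of largest overlap. The cause of these shifts was not tested beyond the length, filter and library named.

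CTCF and RAD21 peaks in lost segments were fewer at 1 h than without stress under all settings run, and without any 1 library their log2 differences were -0.95 to -0.62 and -2.22 to -1.69. The changes relative to kept segments had no stable sign at 7.5 min and 1 h. That of RAD21 in recovery was below 0 under all settings run against kept segments. It was not below 0 in every numbered pair (-0.56, 0.04 and -0.35). Without any 1 library, the changes relative to kept segments were -0.41 to 0.091 for CTCF at 1 h, -0.22 to 0.18 for CTCF at 7.5 min, -0.050 to 0.38 for RAD21 at 1 h and -0.48 to -0.08 for RAD21 in recovery. RAD21 at 1 h was -0.28 at 5 kb, -0.035 with trimmed genes and -0.22 against the rest of the gene spans (added after the data were seen), recovery against that rest was 0.10, and CTCF at 7.5 min was 0.014 at 1 kb; the cause was not tested. The replicate block left every log2 difference as it was (-0.80 for CTCF and -1.96 for RAD21), with exact permutation p-values no lower than 0.25, the smallest possible, which CTCF relative to kept segments also reached (0.7 without the block). The CTCF libraries deviated by number, though not clearly in pair 1, and those of RAD21 did not in every pair (r = -0.05, 0.20 and 0.09). As neither fit can pass 0.05, the absence of a changed call says nothing about stability.

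Depth limits these results: lists without read totals cannot tell a lost region from one below the caller's threshold, and exact permutation tests of 3 libraries against 3 cannot go below p = 0.1.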
